A study of Mus musculus with 20 samples.

Results

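Hba-a1, Hba-a2, Hbb-bs, Hbb-bt and Alas2, genes of the red blood cell, and S100a8 and S100a9, genes of the neutrophil, were followed mouse by mouse in the brains of Katnal2-KO and WT mice. These 7 genes were chosen by their KO minus WT difference, which changed sign between the ages, so that difference is described here and not tested. Of the 7 genes, 6 had values among the 19463 genes of the table, and S100a8 was not analysed here. RNA came from whole brains of male C57BL/6J mice aged 3 weeks (P21) or 10 weeks (P70), with 5 mice in each of 4 groups and 20 in all. The KO mice carried a homozygous deletion of Katnal2 exon 3 and derived from EUCOMM ES cells with the allele Katnal2tm1a(EUCOMM)Wtsi, which was passed through Protamine-Flp mice and then exposed to HTNC, a Cre protein that enters cells, at the early embryo stage. WT mice had intact Katnal2 and the same background and were housed with KO littermates of the same sex. The line came from 1 targeted allele, and perfusion of the brains before RNA extraction is not given in the sources used here.

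Hemoglobin carries oxygen as a tetramer of alpha chains, encoded by Hba-a1 and Hba-a2, and beta chains, encoded in C57BL/6 mice by Hbb-bs and Hbb-bt. Each chain holds a heme, whose synthesis in red-cell precursors starts with Alas2, the erythroid 5-aminolevulinate synthase. Circulating red cells have no nucleus, but young ones (reticulocytes) still hold globin mRNA, so a brain taken with blood in its vessels yields globin reads. Globin transcripts have also been described in neurons. S100a8 and S100a9 form calprotectin, a protein stored in large amounts in neutrophils and a ligand of Tlr4 and of Ager, the receptor RAGE. Bulk RNA cannot tell fewer cells of a type from less RNA per cell, and the cell that each transcript came from was not tested.

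The alpha and beta globin genes each come as near-identical copies, shown here because the copies share reads. In GRCm38 with GENCODE M21 annotation, Hba-a1 spans chr11:32283511-32284465 and Hba-a2 chr11:32296489-32297298 on the plus strand. Hbb-bs spans chr7:103826534-103828096 and Hbb-bt chr7:103812524-103813996 on the minus strand. The coding sequences of Hba-a1 and Hba-a2 are 429 bases long and differ at 1 base, and those of Hbb-bs and Hbb-bt are 444 bases long and also differ at 1 base. The stretches around these bases, from the last exon and in the direction of the gene, are printed with the differing base in capitals. They lie at chr11:32284313-32284372, chr11:32297130-32297189, chr7:103826665-103826724 and chr7:103812656-103812715.
Hba-a1: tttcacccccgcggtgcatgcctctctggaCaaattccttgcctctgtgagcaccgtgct
Hba-a2: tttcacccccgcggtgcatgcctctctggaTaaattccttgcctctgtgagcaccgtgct
Hbb-bs: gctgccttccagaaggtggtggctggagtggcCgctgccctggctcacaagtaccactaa
Hbb-bt: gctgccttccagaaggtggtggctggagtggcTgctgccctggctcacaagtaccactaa
Of all stretches of 100 bases in the Hba-a1 transcript, 56.5% occur unchanged in the Hba-a2 transcript, and 62.6% of those in the Hbb-bs transcript occur in the Hbb-bt transcript. Hba-a1 and Hbb-bs share none. The split of reads between copies rests on the remaining bases, so the values of single copies are uncertain and those of summed copies less so.

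Bases upstream of the RefSeq transcript starts of Hba-a2, Hbb-bs and Alas2 are shown because these genes stand for the alpha chain, the beta chain and heme synthesis, which all fell with age. They come from the RefSeq promoter table (GRCm38.p6), in which all 7 genes were matched, and only bases outside GENCODE exons are printed. The RefSeq starts are not the ends of the GENCODE spans given above, which reach further upstream for 6 of the 7 genes, all but S100a9. The 100 bases before the RefSeq start of Hba-a1 lie wholly in a GENCODE exon of that gene, so none are printed for it, and the Hbb-bs stretch lies within the GENCODE span of Hbb-bs, between exons of another of its transcripts. Capitals mark 4 motifs searched on both strands in the 100 bases before each RefSeq start, namely the CACCC element, the CCAAT box, the TATA box in the form TATAAA, and the GATA element in the forms GATAA or GATAG where an A or T precedes it. The stretches lie at chr11:32296392-32296488, plus strand, chr7:103827929-103828011, minus strand, and chrX:150547317-150547374, plus strand.
Hba-a2: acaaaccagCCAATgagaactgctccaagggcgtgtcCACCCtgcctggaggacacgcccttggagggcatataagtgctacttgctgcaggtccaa
Hbb-bs: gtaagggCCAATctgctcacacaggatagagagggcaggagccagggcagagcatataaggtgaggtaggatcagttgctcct
Alas2: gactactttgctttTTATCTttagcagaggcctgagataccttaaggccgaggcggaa
In these windows, of which 6 of 7 hold GENCODE exon bases, CCAAT was found in 4 of the 7 genes, all of them globins, against 18.9% of 32851 promoter windows, and outside exon bases in 3 (Hba-a2, Hbb-bs and Hbb-bt). CACCC was found in 6 of the 7, all but S100a8, against 27.2%, and outside exon bases in 3 (Hba-a2, Hbb-bt and S100a9). A GATA form was found in 2, Alas2 and S100a9, against 10.4%, both outside exon bases. TATAAA was found in 2, Hbb-bt and S100a8, against 5.56%, and in 0 outside exon bases. Other forms of the TATA box were not searched, so this count does not show that a gene lacks one. The shares of all promoter windows count exon bases too. No different motifs overlapped. The windows before the RefSeq starts of Hba-a1 and Hba-a2 share an unbroken run of 97 bases. These matches describe letters in a window and show no binding.

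The values are counts per gene that the authors normalized between mice, called normalized counts here. They summed to between 27310523 and 28423042 per mouse, and the spacing of the lowest values put the depth at roughly 26400000 to 37300000 read pairs at P21 and 23600000 to 27100000 at P70. Katnal2 was lower in KO, at 78.1 to 96.0 normalized counts against 99.3 to 115 in WT at P21 and at 95.1 to 125 against 101 to 141 at P70. KO and WT did not overlap at P21 and did at P70, and since the value covers all exons of the gene it checks the deletion only in part. The P70 mice of replicate 5, KO and WT, stood apart from the other mice over all genes, with a root mean square deviation from their group mean of 0.532 and 0.438 on the log2 scale against 0.235 to 0.339 in the other 18 mice. All 12 general markers of brain cells had values. Of 4 defining red-cell markers only Slc4a1 had values, at 3.49 to 55.1 normalized counts, and the other 3 (Ahsp, Hemgn and Klf1) were not analysed here. Of 7 defining neutrophil markers, Ngp and Ltf had values, with means of 5.82 and 7.43 over the 20 mice, and the other 5 were not analysed here. So the red-cell label rests on globins, Alas2 and Slc4a1, and the neutrophil label on genes close to the lowest mean in the table, 3.05.

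The red-cell genes were most abundant in P21 WT mice, lower in P21 KO mice and lowest at P70. Hba-a1, an alpha chain gene, had 9679, 8059, 15213, 6271 and 6840 normalized counts in the P21 WT mice of replicates 1 to 5. In the P21 KO mice it had 3130.1, 5226, 7383, 7550.2 and 4272. At P70 the WT mice had 2118, 2109.8, 1623, 1754 and 2644, and the KO mice 1568, 2545, 2310.2, 1871 and 3545. Replicate 3 was the highest P21 WT mouse and replicate 1 the lowest P21 KO mouse. Each P21 WT mouse was above each P70 mouse of either genotype, whereas the lowest P21 KO mouse lay below the highest P70 KO mouse. Hba-a2, the other alpha chain gene, ranged from 8545 to 20363 in P21 WT, from 4078 to 10224 in P21 KO, from 2316 to 3012 in P70 WT and from 2181 to 4041 in P70 KO, with no overlap between ages in either genotype.

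Hbb-bs, the more abundant of the adult beta chain genes, had the same highest and lowest P21 mice. It had 15034, 10630.0, 21510.2, 7722 and 10492 normalized counts in the P21 WT mice and 4050.1, 7660.4, 11325, 10084 and 5758 in the P21 KO mice. At P70 it had 4131, 3537, 2583, 2868 and 3404 in WT and 2851, 4532, 4129, 3024 and 4578 in KO. WT ages did not overlap, and the P21 KO mouse of replicate 1 lay within the P70 KO range. Hbb-bt, the other adult beta chain gene, ranged from 1550.0 to 3638 in P21 WT, from 662 to 1969 in P21 KO, from 393 to 587 in P70 WT and from 492 to 814 in P70 KO. The 4 globins together took 0.133% ± 0.0531 (SD, n = 5) of all normalized counts in P21 WT, 0.0791% ± 0.0287 in P21 KO, 0.0311% ± 0.00422 in P70 WT and 0.0359% ± 0.00877 in P70 KO.

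Alas2, the heme enzyme gene on the X chromosome (chrX:150547375-150570638, plus strand, 11 exons), followed at a lower level. Its normalized counts were 405, 338, 552, 315 and 343 in the P21 WT mice and 118, 200.9, 297, 325 and 187 in the P21 KO mice. At P70 they were 96.1, 119, 67.1, 133 and 89.1 in WT and 156, 141, 109, 88.7 and 131 in KO. The P21 WT mouse of replicate 3 was again the highest and the P21 KO mouse of replicate 1 the lowest of its age. S100a9, the calprotectin gene (chr3:90692632-90695721, minus strand), stayed near the floor of the table in every group. It had 13.1, 5.96, 3.90, 25.5 and 5.76 normalized counts in the P21 WT mice and 31.6, 3.54, 4.65, 10.5 and 6.02 in the P21 KO mice. At P70 it had 9.67, 16.3, 1.11, 12.9 and 3.62 in WT and 7.80, 8.09, 11.3, 6.36 and 3.51 in KO. The groups overlapped throughout, and the P21 KO mouse with the most S100a9 was the one with the least globin.

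**Figure D1:**
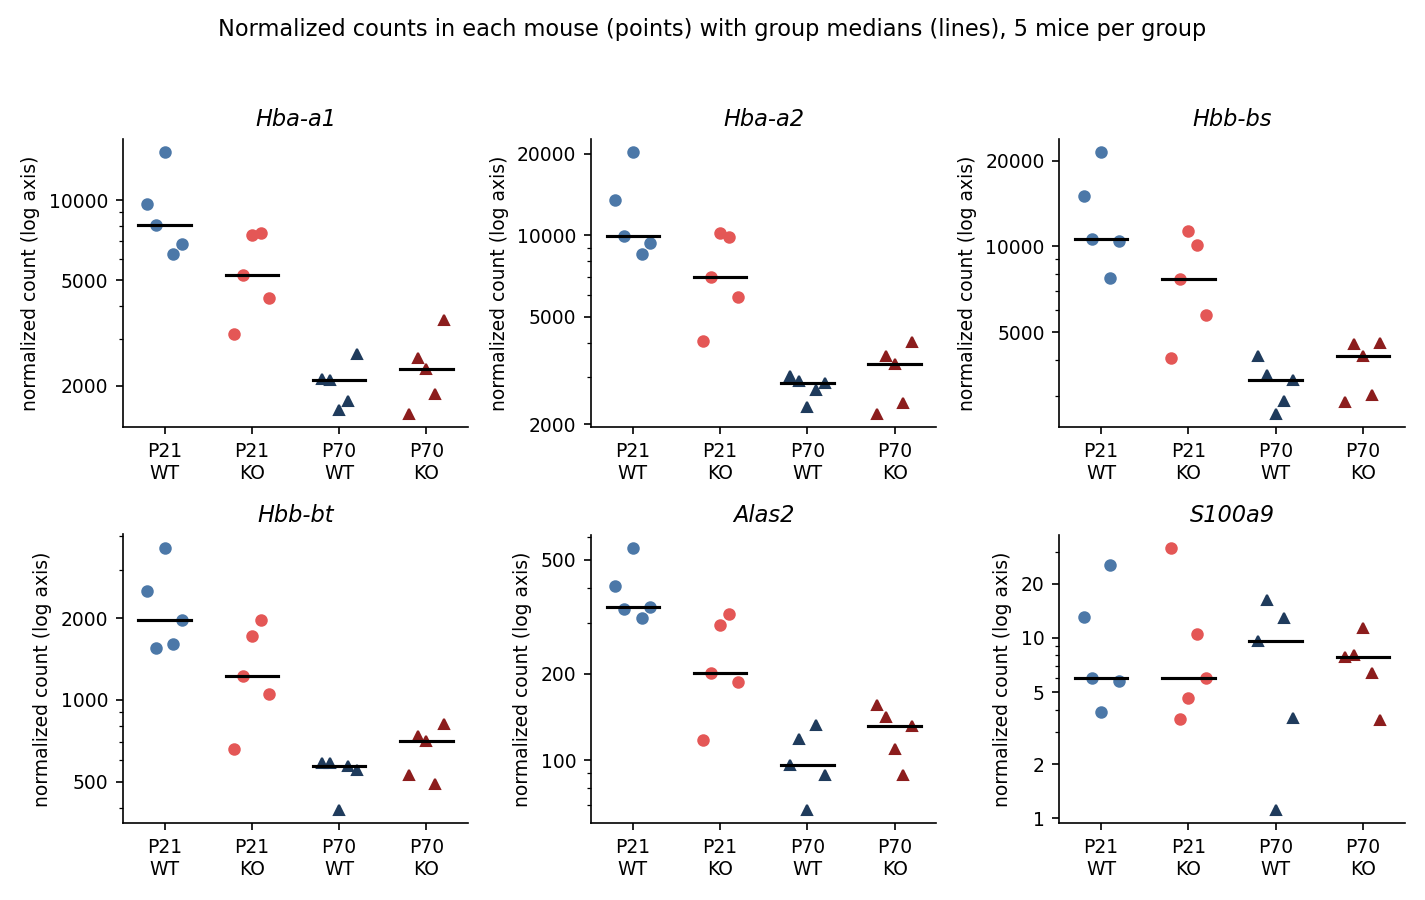
Normalized counts (log axis) of the 6 genes with values in each mouse, by group, with P21 as circles, P70 as triangles, and lines at the group medians (n = 5). For the 5 red-cell genes each P21 WT mouse sits above each P70 WT mouse, while S100a9 shows overlapping groups between 1.11 and 31.6.

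Per kilobase of transcript, which allows genes to be set beside each other, Hba-a2 and Hbb-bs led. In P21 WT mice the level per kilobase was 22250 ± 8781 (SD, n = 5) for Hba-a2, 20824 ± 8586 for Hbb-bs, 13179 ± 5150.1 for Hba-a1, 3214 ± 1227 for Hbb-bt, 192 ± 47.2 for Alas2 and 21.2 ± 17.4 for S100a9. Hba-a2 and Hbb-bs did not differ beyond their spread, and either led, Hba-a2 in 13 of the 20 mice and Hbb-bs in 7. Hba-a1, Hbb-bt, Alas2 and S100a9 followed in this order in 19 mice, and in 1 mouse S100a9 stood above Alas2.

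With age, all 5 red-cell genes that could be tested fell. The average of both genotypes, P70 minus P21, does not contain the KO difference by which the genes were chosen, and it was tested with limma in the 17637 genes whose mean reached 10, with p-values adjusted by Benjamini-Hochberg. On the log2(value + 1) scale Hba-a1 fell by 1.66 (SE 0.18, adjusted p = 9.26e-07), 3.15-fold. Hba-a2 fell by 1.65 (SE 0.17, adjusted p = 4.09e-07), 3.15-fold. Hbb-bs fell by 1.43 (SE 0.19, adjusted p = 7.43e-06), 2.70-fold, and Hbb-bt fell by 1.47 (SE 0.18, adjusted p = 3.52e-06), 2.78-fold. Alas2 fell by 1.37 (SE 0.17, adjusted p = 4.39e-06), 2.58-fold. Among all genes 2251 (12.8%) were called lower at P70 and 2227 (12.6%) higher, with a median difference of -0.01, and the 5 genes ranked 37, 38, 70, 64 and 83 from the most lowered. Summed copies gave -1.65 (SE 0.17) for the alpha pair and -1.44 (SE 0.18) for the beta pair. S100a9 had a mean below 10 and was not in this test. With no filter on low values its difference was -0.28 (SE 0.42, limma adjusted p = 0.678).

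The fall with age differed in size between the genotypes, and that difference is the one by which the genes were chosen. Values of 1 genotype alone contain it. They, and the counts of genes with separated ages, are therefore described here and are no test of a genotype difference. In WT alone the log2 differences were -2.11 for Hba-a1, -2.09 for Hba-a2, -1.91 for Hbb-bs, -2.01 for Hbb-bt and -1.95 for Alas2. In KO alone they were -1.20, -1.21, -0.96, -0.94 and -0.78 in the same order. In WT, all 5 genes had each P21 mouse above each P70 mouse, against 5.6% of all genes tested. In KO, 1 of the 5 did, Hba-a2, against 5.51% of all genes. Leaving out both P70 mice of replicate 5 gave falls of 1.78, 1.71, 1.48, 1.52 and 1.36 for Hba-a1, Hba-a2, Hbb-bs, Hbb-bt and Alas2, each still past the threshold. The ages were separate mice and any difference in how they were collected cannot be told apart from age. Depth was higher at P21, as given above, and its part in the fall was not tested.

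KO minus WT, the difference used to choose the genes, was negative at P21 and positive at P70 for the 5 red-cell genes. At P21 the log2 differences were -0.74 (SE 0.26) for Hba-a1, -0.74 (SE 0.26) for Hba-a2, -0.75 (SE 0.29) for Hbb-bs, -0.79 (SE 0.28) for Hbb-bt and -0.85 (SE 0.24) for Alas2, which puts WT at 1.67 to 1.80 times KO. The genotypes overlapped for each of these genes. For Hba-a1, 3 WT mice lay above every KO mouse and 3 KO mice below every WT mouse. Leaving out any 1 mouse kept the sign, with a range for Hba-a1 of -0.87 to -0.54, the smallest without the P21 WT mouse of replicate 3.

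At P70 the differences were 0.17 (SE 0.20) for Hba-a1, 0.14 (SE 0.16) for Hba-a2, 0.20 (SE 0.16) for Hbb-bs, 0.27 (SE 0.16) for Hbb-bt and 0.32 (SE 0.20) for Alas2, up to 1.25-fold higher in KO. The genotypes overlapped for each gene. With each mouse left out the differences stayed positive but moved by more than 1.5 times, from 0.01 to 0.31 for Hba-a1, 0.04 to 0.26 for Hba-a2, 0.12 to 0.30 for Hbb-bs, 0.17 to 0.37 for Hbb-bt and 0.19 to 0.44 for Alas2. The lowest values came without the P70 KO mouse of replicate 5 for both alpha genes and without the P70 WT mouse of replicate 3 for the other 3 genes. Without both P70 mice of replicate 5 the alpha differences were 0.11 and 0.05. The difference between the ages (the age by genotype interaction) was 0.91 (SE 0.36) for Hba-a1, 0.88 (SE 0.34) for Hba-a2, 0.95 (SE 0.37) for Hbb-bs, 1.07 (SE 0.36) for Hbb-bt and 1.17 (SE 0.34) for Alas2. A sign change from lower to higher was common, since 3804 of 17293 genes tested at both ages, or 22%, had it at any size. Over all genes, no KO minus WT difference passed an adjusted threshold in limma at P21 or P70, with 429 genes (2.44%) and 199 genes (1.13%) at an unadjusted p under 0.05. The interaction had 0 adjusted calls and 296 unadjusted.

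S100a9 showed no steady KO minus WT sign. Its log2 difference was -0.07 at P21 (SE 0.56) and 0.08 at P70 (SE 0.55) with no filter on low values. The plain means ran the other way, at 11.3 ± 11.7 (SD, n = 5) in P21 KO against 10.8 ± 8.89 in P21 WT and at 7.42 ± 2.84 in P70 KO against 8.71 ± 6.31 in P70 WT. The P21 difference turned positive when any 1 of 4 mice (P21 KO replicates 2, 3 and 5 and P21 WT replicate 1) was left out, with a range of -0.32 to 0.19 over the runs in which S100a9 passed the filter. The spread between mice was larger than any of these differences.

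**Figure D2:**
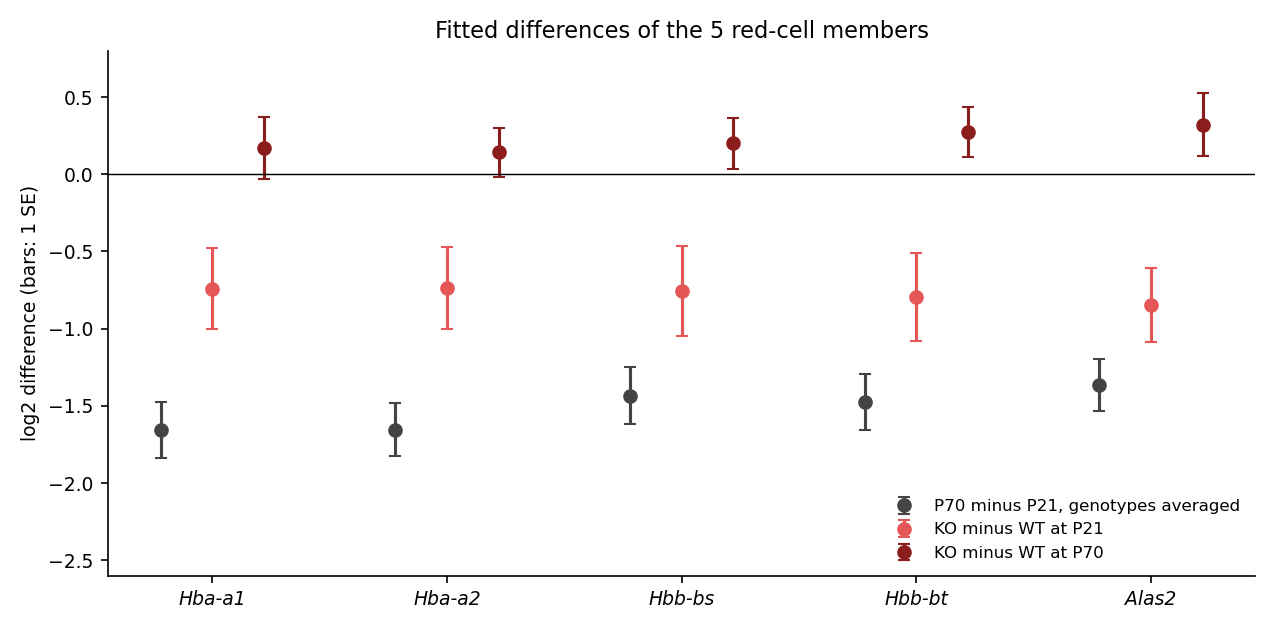
Fitted log2 differences of the 5 red-cell genes (points) with 1 SE (bars), for P70 minus P21 averaged over genotypes (20 mice) and for KO minus WT at each age (10 mice each). The age differences lie between -1.66 and -1.37, the P21 KO minus WT differences between -0.85 and -0.74, and those at P70 between 0.14 and 0.32.

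Other listed red-cell genes gave mixed differences with age. Of 25 listed, 9 had values and were tested, of which 2 fell (22.2%, against 12.8% of all genes), 3 rose (33.3%, against 12.6%) and 4 did not pass, with a median of 0.09 against -0.01 for all genes. The list holds genes with high values here that brain cells also express, such as Ank1 and Tmcc2 with means of 5146 and 5095 normalized counts. Slc4a1, the anion exchanger of the red-cell membrane and the only defining red-cell marker with values, fell by 1.31 (SE 0.27, limma adjusted p = 0.000956). Its medians were 28.7 normalized counts in P21 WT, 17.6 in P21 KO, 9.29 in P70 WT and 9.26 in P70 KO. Bpgm, which makes the 2,3-bisphosphoglycerate that tunes oxygen release, fell by 0.31 (SE 0.05), while Epor, the erythropoietin receptor, rose by 0.72 (SE 0.11). Slc25a37, a mitochondrial iron carrier, and Tmcc2, a membrane protein, each rose by 0.24. Ank1, a membrane skeleton anchor, had a difference of 0.09 (SE 0.06, limma adjusted p = 0.316). Of 7 other globin genes only Hbq1a, a theta globin with a mean of 6.78, had values, and it was below the filter. The embryonic globins were not analysed here.

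The enzymes of heme synthesis shared with all cells gave smaller differences than Alas2. Of 8 listed and tested, 3 fell (37.5%, against 12.8% of all genes) and 5 did not pass. Cpox, coproporphyrinogen oxidase, fell by 0.43 (SE 0.09), Alas1, the synthase used outside red cells, by 0.17 (SE 0.04) and Uros, uroporphyrinogen III synthase, by 0.18 (SE 0.05). Fech, which inserts the iron, had a difference of -0.12 (SE 0.05, limma adjusted p = 0.0949). Of 11 genes for clearing hemoglobin, heme and iron, 9 passed the filter, 2 rose and 2 fell (22.2% each, against 12.6% and 12.8% of all genes). Fth1, the ferritin heavy chain, rose by 0.41 (SE 0.08) and Lrp1, the receptor for heme bound to hemopexin, by 0.39 (SE 0.08). Cd163, the scavenger receptor for hemoglobin bound to haptoglobin, fell by 0.69 (SE 0.12) and Slc40a1, the iron exporter ferroportin, by 0.52 (SE 0.07).

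Neutrophil genes gave no common direction. Of 30 listed, 11 had values and 6 were tested, with 1 lower, 1 higher (16.7% each, against 12.8% and 12.6% of all genes) and 4 that did not pass, and a median of -0.16. Pglyrp1, a peptidoglycan recognition protein of neutrophil granules with a mean of 171 normalized counts, fell by 0.80 (SE 0.16). Csf3r, the G-CSF receptor, with a mean of 114, rose by 0.43 (SE 0.11). Prtn3, proteinase 3, had a difference of -0.26 (SE 0.12, limma adjusted p = 0.124) and Lcn2, lipocalin 2, one of -0.61 (SE 0.40, limma adjusted p = 0.291). The summed level of the 11 genes was 495 to 613 at P21 and 426 to 685 at P70. Pglyrp1, Csf3r and Hdc had the highest means, 171, 114 and 103, against 5.82 and 7.43 for the defining markers Ngp and Ltf. The sum thus rests little on defining markers, and the cells that gave these values were not tested. Of 4 receptors of calprotectin, Cd36 fell by 0.52 (SE 0.16), and Tlr4, Ager and Bsg did not pass.

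Markers of vessels and of other blood cells also moved with age, with differences smaller in size than those of the globins. The counts that follow stand against 12.8% of all genes lower and 12.6% higher. Of 18 endothelial genes 5 fell (27.8%) and none rose, with a median of -0.24 and a summed level of 14365 to 18331 normalized counts at P21 and 11800 to 16796 at P70. Among them Kdr, a VEGF receptor, fell by 0.98 (SE 0.14), Slco1a4, an organic anion transporter, by 0.61 (SE 0.09), Mfsd2a, a lipid transporter of the blood-brain barrier, by 0.66 (SE 0.14) and Ptprb, a phosphatase, by 0.49 (SE 0.09). Of 10 mural genes, Rgs5 and Abcc9 of pericytes fell by 0.47 and 0.43 and the other 8 did not pass. Of 13 platelet genes 7 had values and 6 were tested. Gp1bb, a subunit of a von Willebrand factor receptor whose locus overlaps Sept5 and whose value is therefore uncertain, fell by 1.09 (SE 0.31), Itga2b, a fibrinogen receptor chain, rose by 0.39 (SE 0.12), and 4 did not pass. All 3 tested monocyte genes fell, F13a1 by 0.77, Vcan by 0.86 and Fn1 by 0.54, and Vcan and Fn1 are also made by other brain cells. Of 3 lymphocyte genes tested, Ighm, an antibody heavy chain, rose by 0.55 and Trbc2, a T cell receptor chain, fell by 0.43. Of 7 meningeal genes the collagens Col1a1 and Col1a2 fell by 0.66 and 0.63, and of 6 choroid plexus genes Kl, Kcnj13 and Clic6 rose by 0.63, 0.55 and 0.39. The part of any of these cell types in the fall of the globins was not tested.

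**Figure D3:**
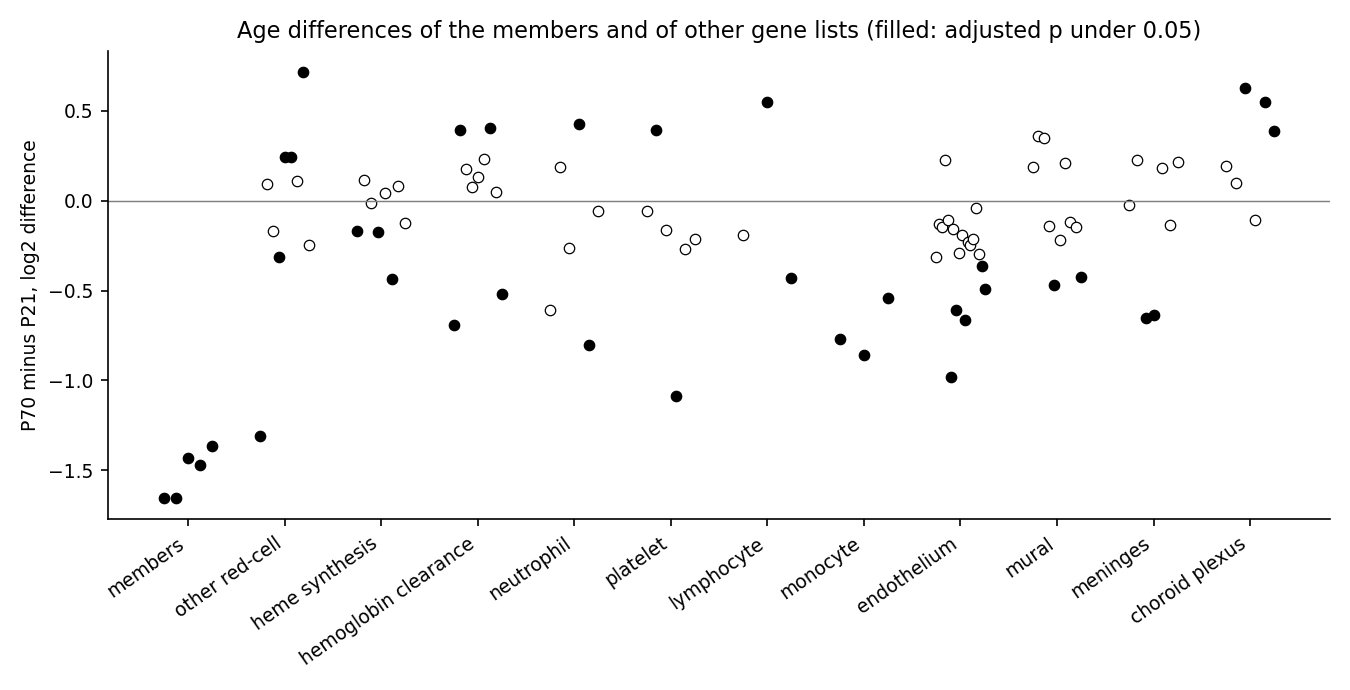
P70 minus P21 log2 differences, averaged over genotypes, of the 5 tested red-cell genes (members) and of the tested genes of 11 other lists, with genes past an adjusted p of 0.05 filled. The 5 genes lie between -1.66 and -1.37, and Slc4a1 at -1.31 lies nearest to them.

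No gene of any list passed the adjusted threshold for KO minus WT at P21 or P70 in limma. At an unadjusted p under 0.05, 3 of 101 list genes tested (2.97%) passed at P21, against 2.44% of all genes, and 2 of 102 (1.96%) at P70, against 1.13%. They are named here after their values were seen. At P21 they were Csf3r of the neutrophil list, with a KO minus WT difference of 0.50 (SE 0.12), and Folr1 and Kcnj13 of the choroid plexus list, with 0.58 (SE 0.25) and 0.52 (SE 0.19). At P70 they were Prtn3 of the neutrophil list, with 0.63 (SE 0.21), and the endothelial Kdr, with 0.43 (SE 0.19). All 5 were higher in KO. No gene of the red-cell or heme lists was among them. The 6 platelet genes had a median KO minus WT difference of -0.14 at P21, with 4 of 6 (66.7%) below 0 against 47.5% of all genes, and of 0.32 at P70, with 4 of 6 (66.7%) above 0 against 47.8%, beside medians of all genes within 0.01 of 0. Their summed level was 123 to 175 in P21 KO, 154 to 203 in P21 WT, 119 to 237 in P70 KO and 129 to 183 in P70 WT. The 18 endothelial genes had a median of -0.03 at P21, with 13 of 18 (72.2%) below 0 against 47.5% of all genes. At P70 the endothelial median was 0.10, with 14 of 18 (77.8%) above 0 against 47.8% of all genes. The 6 choroid plexus genes had medians of 0.28 at both ages, with 6 of 6 (100%) above 0 at each. The other listed red-cell genes had a median of 0.02 at P21, with 5 of 9 (55.6%) above 0 against 52.5% of all genes. At P70 their median was 0.04, with 6 of 8 (75%) above 0. Slc4a1, the only defining red-cell marker among them, was 1 of the 4 below 0 at P21, at -0.62 (SE 0.33). At P70 it was below the filter. At P21, 8 of 9 hemoglobin clearance genes (88.9%) and 7 of 7 meningeal genes (100%) were above 0. All 3 monocyte genes were below 0 at P70, against 52.2% of all genes. The part of these cells in the KO minus WT values of the red-cell genes was not tested.

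Within a mouse the globins held similar proportions, while their sum ranged from 0.0252% to 0.220% of all normalized counts. The ratio of Hba-a1 to Hba-a2 normalized counts lay between 0.654 and 0.812 in 18 mice and was 0.877 and 0.927 in the P70 KO and WT mice of replicate 5, the mice that stood apart over all genes. The ratio of Hbb-bs to Hbb-bt had a median of 6.00 and a range of 4.80 to 7.03, and its groups overlapped. The ratio of alpha to beta globin had a median of 1.41 in P21 WT and 1.44 in P21 KO, and of 1.29 in P70 WT and 1.17 in P70 KO. Its medians were lower at P70, with ages that overlapped, since the highest P70 mouse had 1.41, and this difference was not tested. Alas2 per 100 globin counts had a median of 1.07 over the 20 mice, and its highest values were 2.19 in the P70 KO mouse of replicate 1 and 1.69 in the P70 WT mouse of replicate 4.

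**Figure D4:**
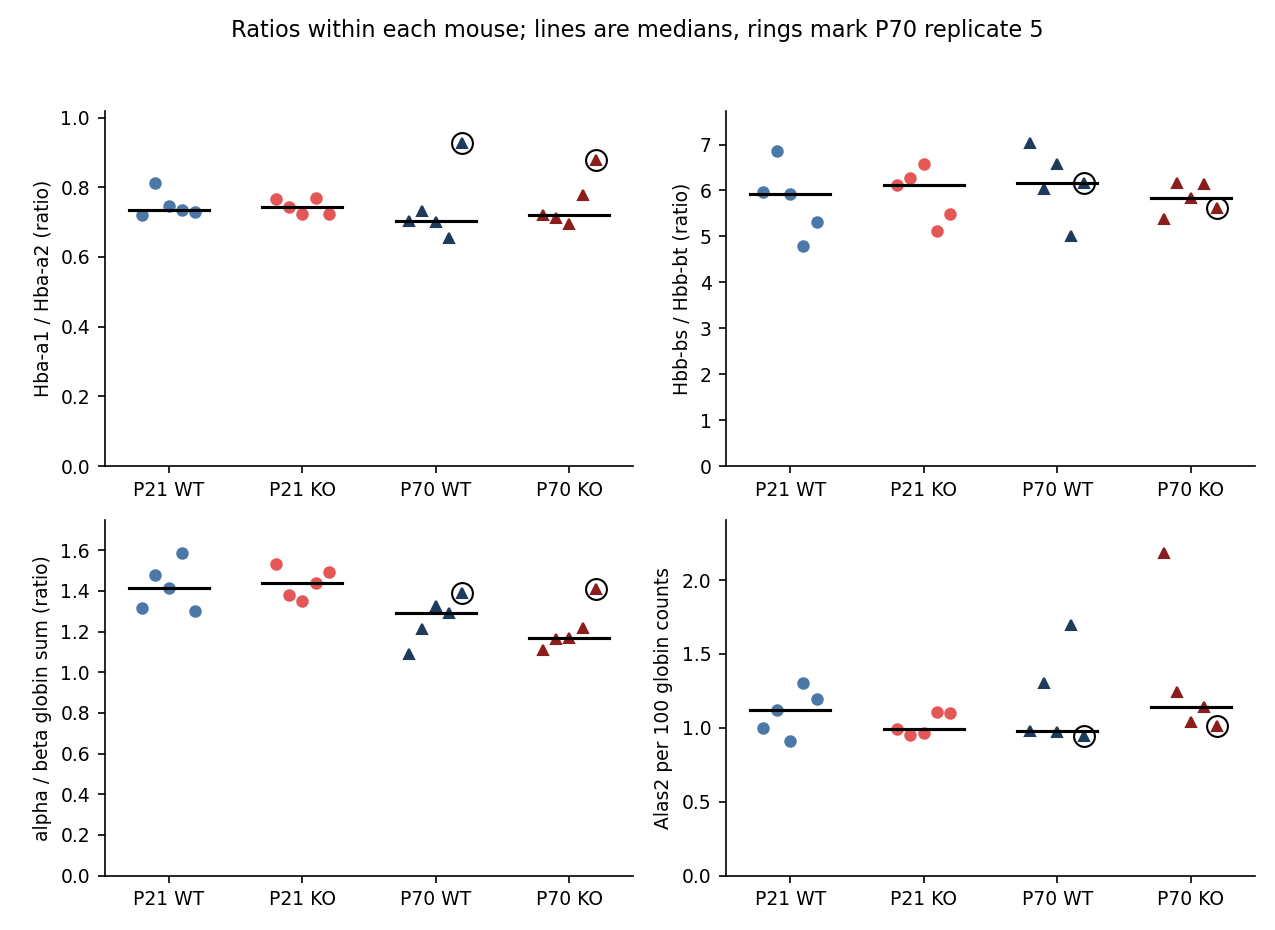
Ratios of normalized counts within each mouse (points), by group, with lines at the medians (n = 5) and rings around the P70 mice of replicate 5. Both ringed mice have the highest Hba-a1 to Hba-a2 ratios, 0.877 and 0.927, and 1 P70 KO mouse has 2.19 Alas2 counts per 100 globin counts.

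Mice with more of 1 globin than their group mean tended to have more of the others. Across the 20 mice, deviations from group means of log2(value + 1), which do not hold the KO difference, were compared by Pearson's r and Spearman's rho in 7 relations, with 100000 permutations within groups and Benjamini-Hochberg adjustment. For Hba-a1 and Hba-a2 r was 0.96 (permutation p = 1e-05, the smallest these permutations can give, adjusted p = 2.33e-05) and rho 0.95. For Hbb-bs and Hbb-bt r was 0.94 and rho 0.93, and for Hba-a1 and Hbb-bs, which share no stretch of 100 bases, r was 0.93 and rho 0.92, each with the same p-values. The copies of a pair share reads that had to be split between them, so r and p within a pair cannot show that the copies vary together. Without the 2 mice farthest from the median of the x gene, the P21 WT mice of replicates 3 and 1, r was 0.95, 0.92 and 0.91. Within P21 it was 0.99, 0.96 and 0.98 and within P70 0.90, 0.88 and 0.82. The within-group SD of the 5 red-cell genes was 0.415 to 0.465 on the log2 scale, above that of 85.5% to 88.8% of genes, whose median was 0.203.

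Hbb-bs and Alas2 were related with r of 0.73 (permutation p = 0.00165, adjusted p = 0.00289) and rho of 0.72 (permutation p = 0.00253, adjusted p = 0.00443), and r of 0.69 without the 2 farthest mice. Within P21 r was 0.94 and within P70 0.22, and the difference between the ages was not tested. The P70 value rested on single mice, at 0.53 without the P70 KO mouse of replicate 1 and -0.07 without the P70 WT mouse of replicate 3, the highest and lowest with each P70 mouse left out. Without the former the r over both ages was 0.83. Hbb-bs and Cldn5, a tight junction gene of brain endothelium, had r of 0.33 and rho of 0.40, with adjusted permutation p of 0.0847 and 0.0845. Hbb-bs and S100a9 had r of -0.34 (adjusted permutation p = 0.224) and rho of -0.21 (adjusted permutation p = 0.498), with values of -0.64 within P21 and 0.26 within P70. The first was -0.42 without the P21 KO mouse of replicate 1, and the second -0.13 without the P70 WT mouse of replicate 3. S100a9 and Lcn2 had r of 0.29 (adjusted permutation p = 0.315) and rho of 0.17 (adjusted permutation p = 0.504), with r of -0.16 within P21 and 0.59 within P70. Without the 2 farthest mice r was 0.36, -0.30 and 0.22 for these last 3 relations. A relation of S100a9 with globin or Lcn2 was thus not detectable with these mice.

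**Figure D5:**
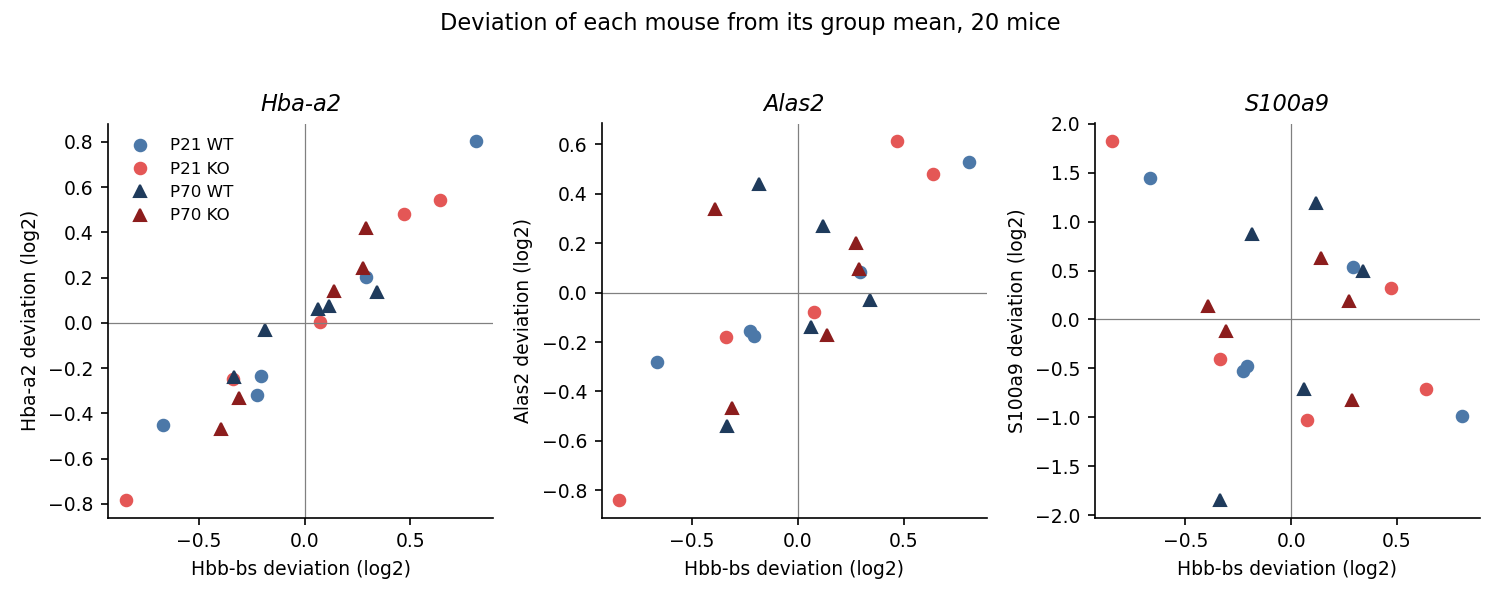
Deviation of each of the 20 mice from its group mean (log2) for Hba-a2, Alas2 and S100a9 against Hbb-bs, with P21 as circles and P70 as triangles. Hba-a2 follows Hbb-bs closely (r = 0.97), Alas2 has r of 0.94 at P21 and 0.22 at P70, and S100a9 shows no line (r = -0.34).

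Ranked over 17636 other genes by r with Hbb-bs across the 20 mice, Hba-a2, Hbb-bt and Hba-a1 took places 1, 2 and 3 (r = 0.97, 0.94 and 0.93) and Alas2 place 16. Hbb-bt shares reads with Hbb-bs, so its place is no separate result. The 8 genes outside the chosen set with the highest r were Commd1 (0.81), Fmc1 (0.80), Hs3st4 (0.79), H2-Eb1 (0.78), Gm3248 (0.77), Gabarapl2 (0.76), Rad1 (0.75) and Tmem158 (0.75), with rho between 0.70 and 0.82. None of them is on a list of blood or vessel markers used here, and 30 genes in all reached r of 0.7. For S100a9 the 8 highest were Adcy6 (0.74), Zfp948 (0.72), Dlx1as (0.72), Fam78b (0.71), Zfp607b (0.70), Rarb (0.69), Lasp1 (0.69) and Dtx4 (0.69), and 5 genes reached 0.7. Alas2 had r of -0.07 with S100a9, and the 4 globins r between -0.39 and -0.23.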

How the data were processed

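Whole-brain RNA of 20 male mice was measured by poly-A RNA-seq (paired-end). The authors estimated transcript abundance on GRCm38 with Salmon 1.1.0, corrected for GC bias, and passed it through tximport to DESeq2, where it was divided by size factors, and the deposited signal values are these normalized counts. The submitters' processing notes name R 3.6.2 and DESeq2 1.26.0. Whole reads could not be recovered because the values also carry factors of gene length, so no count test was run. Of 19463 gene IDs, 19447 matched a symbol. No 2 mice had identical values, and 0 columns lacked a sample.

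Values were analysed as log2(value + 1) with limma 3.58.1 in R 4.3.3 (lmFit, eBayes with an intensity trend) in genes whose mean reached 10 in the mice fitted. P-values were adjusted by Benjamini-Hochberg and called under 0.05. KO and WT were compared within each age (10 mice), and age and the interaction in all 20 mice. Fold changes on this scale understate the change of low genes. Relations used numpy 2.4.6 and scipy 1.17.1. The fits were tested on simulated data. Depth was estimated as the column total over the value of 1 read and is approximate, since the sums themselves are normalized. Intervals from depth were not computed.

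The genes, gene lists and tests were chosen with earlier results of these data known. Besides the chosen genes, the text names from each list up to 4 genes with the smallest p for age and, for red-cell, heme and neutrophil lists, the 2 with the highest mean, 8 genes most like Hbb-bs and Katnal2. S100a9 took the place of S100a8 in 2 relations and the likeness ranking, and leaving out both P70 mice of replicate 5, or each mouse from the relations of Hbb-bs with Alas2 and S100a9 within an age, was added, all chosen after seeing the data. Alternatives were other pseudocounts and filters, no trend, quantile normalization, the replicate block, summed copies, 1 genotype or age alone, a single fit and each mouse left out. Levels per kilobase used 1 GENCODE M21 transcript per gene.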

Additional observations from a re-analysis of the deposited data

Results flagged for a closer look

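Within groups of 5 mice, 48 sets of values (6 genes, Katnal2 and 5 derived quantities in 4 groups) were searched for a mouse far from the others (Dixon's gap over range above 0.71), which chance gives in about 1 of 20 sets. S100a9 was 31.6 normalized counts in the P21 KO mouse of replicate 1 against 10.5 in the next. Hbb-bt was 393 in the P70 WT mouse of replicate 3 against 552 in the next lowest. The Hba-a1 to Hba-a2 ratio was 0.927 in the P70 WT mouse of replicate 5 against 0.732 in the next, and Alas2 per 100 globin counts was 2.19 in the P70 KO mouse of replicate 1 against 1.24 in the next.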

How the results depend on the processing

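The age differences of Hba-a1, Hba-a2, Hbb-bs, Hbb-bt and Alas2 kept their sign under every alternative run and their call under all but KO mice alone, where Alas2 was -0.78 (limma adjusted p = 0.0794). A fit of 1 genotype contains the difference by which the genes were chosen, so its calls do not compare the genotypes. With each mouse left out they ranged from -1.75 to -1.56, -1.75 to -1.55, -1.54 to -1.33, -1.59 to -1.38 and -1.47 to -1.29, each past the threshold. Of all genes, 2251 were called lower and 2227 higher at P70. These counts were 828 and 815 in WT alone and 800 and 667 in KO alone, with fewer mice.

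For KO minus WT at P21, genes at an unadjusted p under 0.05 numbered 429, 207 in a single fit of all 20 mice and 353 to 657 with each mouse left out, the highest without P21 KO replicate 4. Adjusted calls were 0, and 0 to 1 with each mouse left out, with 1 without P21 KO replicate 4 and 1 without P21 WT replicate 3. At P70 the unadjusted count was 199, 108 with a mean of at least 50, 346 in a single fit, 162 to 515 with each mouse left out (515 without P70 KO replicate 5, 377 without P70 WT replicate 5) and 651 without both, which gave 1 adjusted call. For the interaction it was 296, 182 with a mean of at least 50, 254 to 665 with each mouse left out (665 without P70 KO replicate 5, 481 without P70 WT replicate 5) and 670 without both. The causes were not tested.

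In the fit with replicate numbers as a block, the unadjusted counts were 732 at P21, 610 at P70 and 343 for the interaction, with 0 adjusted calls in each, and 2489 genes were lower and 2488 higher with age. The numbers mark different mice, and the deviations of same-numbered KO and WT mice correlated at -0.00913 to 0.26, except for 0.705 in P70 replicate 5, so the numbers were not taken to pair the mice. S100a8 relations were not run. The number of mice and the low values of S100a9 limit what can be seen.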
